A study of Mus musculus with 12 samples.

Results

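Interferon-stimulated genes are the genes that a cell switches on after it has sensed an interferon, and a set of 37 of them was followed in cultured mouse cardiac fibroblasts with and without Smad7. The 37 genes were taken by symbol from a fixed list, and all 37 were found once among the 35275 genes of the count table. RNA-Seq had been performed on 12 libraries in 4 conditions of 3 libraries each. The fibroblasts came from 12-week-old C57BL/6 mice (C57BL/6J in the study's methods) whose Smad7 gene is floxed (Smad7 fl/fl). By this description, control and knockout cells carried the same alleles before infection. At passage 2 all cultures were infected with an adenovirus for 48 hours at a multiplicity of infection of 100. Smad7-KO cells received a virus expressing the Cre recombinase, whereas control cells received a control virus, labelled as expressing green fluorescent protein and called empty in the study's methods. Within each arm, cells were left unstimulated or were stimulated with TGF-β1 at 10 ng/ml, for 2 hours by one label and for 4 hours by another. The labels call the control cells wild type, although by the description above they came from floxed mice. Conditions are named by stimulation and arm below, as in unstimulated control or TGF-β1 Smad7-KO, and the libraries of each are numbered 1 to 3. Nothing in the labels says that the libraries of a condition came from separate cultures or animals, so the p-values measure the spread between these libraries, which may be technical. Loss of Smad7 and exposure to the Cre virus cannot be told apart in this design.

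Type I interferons bind a receptor made of Ifnar1 and Ifnar2 and activate the kinases Jak1 and Tyk2. These phosphorylate STAT proteins, among them Stat2, which with Irf9 forms part of the complex ISGF3. ISGF3 binds a DNA element of the promoter, the interferon-stimulated response element (ISRE), and type II interferon acts mainly through another element, the gamma-activated site (GAS). The proteins made from these genes detect viral nucleic acid, degrade or trap viral RNA, tag proteins with the ubiquitin-like Isg15, or limit the signal itself. Smad7 is an inhibitory Smad that is induced by TGF-β and counteracts its signals.

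Among the 37 genes, 27 had a promoter in the RefSeq table of the GRCm38.p6 assembly, with 33 promoters in all, each taken from 250 bases before to 50 bases after the transcription start. The core of the ISRE was searched as GAAA, any 2 bases and GAAA, and that of the GAS as TTC, any 3 bases and GAA, each on both strands, and matches of the 2 motifs overlapped in 2 of the 33 promoters. An ISRE core was found in 16 of the 33 promoters, belonging to 15 of the 27 genes (55.6%), whereas 3.44% of all 32851 promoters and 3.99% of all 27025 genes in the table held one. A GAS core was found in 8 of the 27 genes (29.6%), against 9.55% of all genes. The following stretches hold the ISRE cores of 7 of the genes whose values are given below, and are shown because they are the sequence feature that many members have in common. Each is written 5′ to 3′ on the strand of its gene, with the cores in capitals. Where the core lies on the other strand it reads as its reverse complement, with TTTC on either side of the 2 free bases.
Isg15, chr4:156200850-156200921, minus strand: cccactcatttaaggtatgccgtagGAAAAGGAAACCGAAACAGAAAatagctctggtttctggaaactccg
Rsad2, chr12:26456538-26456597, minus strand: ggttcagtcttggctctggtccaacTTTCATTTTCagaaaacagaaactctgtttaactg
Ifit3, chr19:34583348-34583441, plus strand: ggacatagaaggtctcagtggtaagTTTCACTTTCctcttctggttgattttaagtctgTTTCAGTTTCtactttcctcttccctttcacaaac
Stat2, chr10:128270251-128270310, plus strand: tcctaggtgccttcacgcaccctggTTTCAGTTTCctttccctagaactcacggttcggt
Gbp2, chr3:142620579-142620638, plus strand: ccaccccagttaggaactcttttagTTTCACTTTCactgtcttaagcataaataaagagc
Gbp7, chr3:142530258-142530317, plus strand: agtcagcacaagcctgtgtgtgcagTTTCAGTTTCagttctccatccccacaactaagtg
Trim30a, chr7:104465195-104465254, minus strand: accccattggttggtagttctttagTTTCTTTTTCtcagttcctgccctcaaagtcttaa
In Isg15 there were 3 overlapping cores, and in Ifit3 there were 2. The core began 120 bases before the start in Rsad2, 222 in Stat2, 59 in Gbp2, 53 in Gbp7 and 36 in the first promoter of Trim30a. A match of letters is a description of the sequence and shows no binding.

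Total counts ranged from 19056916 to 25371321 per library. Smad7 itself was at 74.4 ± 2.94 CPM (counts relative to the library size scaled by TMM, as mean ± SD, n = 3) in control cells without and 146 ± 4.24 CPM with TGF-β1. Its level was 29.4 ± 1.48 CPM in Smad7-KO cells without and 76.8 ± 5.89 CPM with TGF-β1, so that reads remained in both Smad7-KO conditions. The log2 fold changes of Smad7-KO against control were -1.34 and -0.92 (edgeR adjusted p = 9.02e-06 and 0.000115). Summed over their lists, 10 fibroblast markers reached 7425 to 11500 CPM, whereas 13 macrophage markers reached 16400 to 26530 CPM, led by Lyz2. The fibroblast genes Col1a1, Col1a2, Col3a1 and Dcn were expressed, whereas Lum did not exceed 1.72 CPM. RNA of macrophage genes was also abundant in every library. Of the 10 fibroblast markers, Dcn and Lum were higher in every unstimulated Smad7-KO library than in every control library. In the same comparison Tcf21 and Thy1 were lower, and 6 overlapped. With TGF-β1, 3 were higher (Pdgfra, Dcn and Lum), 4 were lower (Col1a1, Col3a1, Tcf21 and Thy1) and 3 overlapped. In bulk RNA, more cells of a type and more RNA per cell cannot be told apart. Endothelial markers summed to 283.0 to 347.5 CPM in control and to 46.1 to 58.3 CPM in Smad7-KO libraries. Of these 10 markers, 6 were lower in every unstimulated Smad7-KO library than in every control library, 3 overlapped, and Vwf was higher. With TGF-β1, 7 were lower, 2 overlapped, and Vwf was again higher. Lymphocyte markers did not exceed a sum of 1.06 CPM in any library. The plasmacytoid dendritic cell list summed to 66.6 to 133.8 CPM, nearly all from Lair1, and its marker Siglech had 30 reads over the 12 libraries. The neutrophil list summed to 17.4 to 61.3 CPM, nearly all from Csf3r, with 0 reads of Ly6g and 1 of S100a9. Cardiomyocyte markers summed to 17.1 to 72.6 CPM, mostly from Tnnt2, with Myh6 at no more than 0.85 CPM and 1 read of Nppa.

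All 37 genes passed the filter on low counts. Per length, as FPKM (counts relative to gene length and library size), the most abundant were Bst2, which encodes the tethering protein that holds virus particles on the cell, Ifitm3, which blocks entry of viruses, and the secreted glycoprotein Lgals3bp, with medians over 12 libraries of 359, 298 and 140 FPKM. Ifit3, which binds viral RNA as a member of a complex, followed at 66.9 FPKM. Oasl1 was lowest at 0.444 FPKM, and its lowest library held 4 reads.

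Libraries of the same condition differed widely, and outside unstimulated control most members moved together within a condition. In unstimulated Smad7-KO, library 1 held the lowest value of all 37 genes, whereas it was lowest for 35.9% of the 15150 tested genes. Library 3 of TGF-β1 Smad7-KO held the highest value for 33 of the 37 genes, compared with 39.0% of all tested genes. Library 3 of TGF-β1 control was highest for 31 of 37, compared with 21.6% of all. In unstimulated control the members were divided. Library 2 was highest for 21 genes (41.1% of all tested genes) and lowest for 11 (45.4% of all). Library 3 was lowest for 25 (37.6% of all) and highest for 9 (43.8% of all). In control libraries 1 to 3 the geometric mean of the 37 genes was 20.1, 23.4 and 17.1 CPM without and 13.2, 13.8 and 20.4 CPM with TGF-β1. In Smad7-KO libraries 1 to 3 it was 21.5, 28.0 and 27.5 CPM without and 16.9, 19.4 and 30.2 CPM with TGF-β1. Library 3 of TGF-β1 Smad7-KO thus lay above every other library, and the 2 other libraries of that condition lay within the range of the control cells. Macrophage markers summed in the same order to 21940, 26530 and 16400 CPM without and 16570, 19000 and 19290 CPM with TGF-β1 in control cells. In Smad7-KO cells their sums were 23430, 25680 and 25710 CPM without and 22820, 23880 and 25930 CPM with TGF-β1. The library with the lowest macrophage sum also had the lowest geometric mean of the 37 genes in all 4 conditions. The part of macrophage RNA in the values below was not tested.

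**Figure D1:**
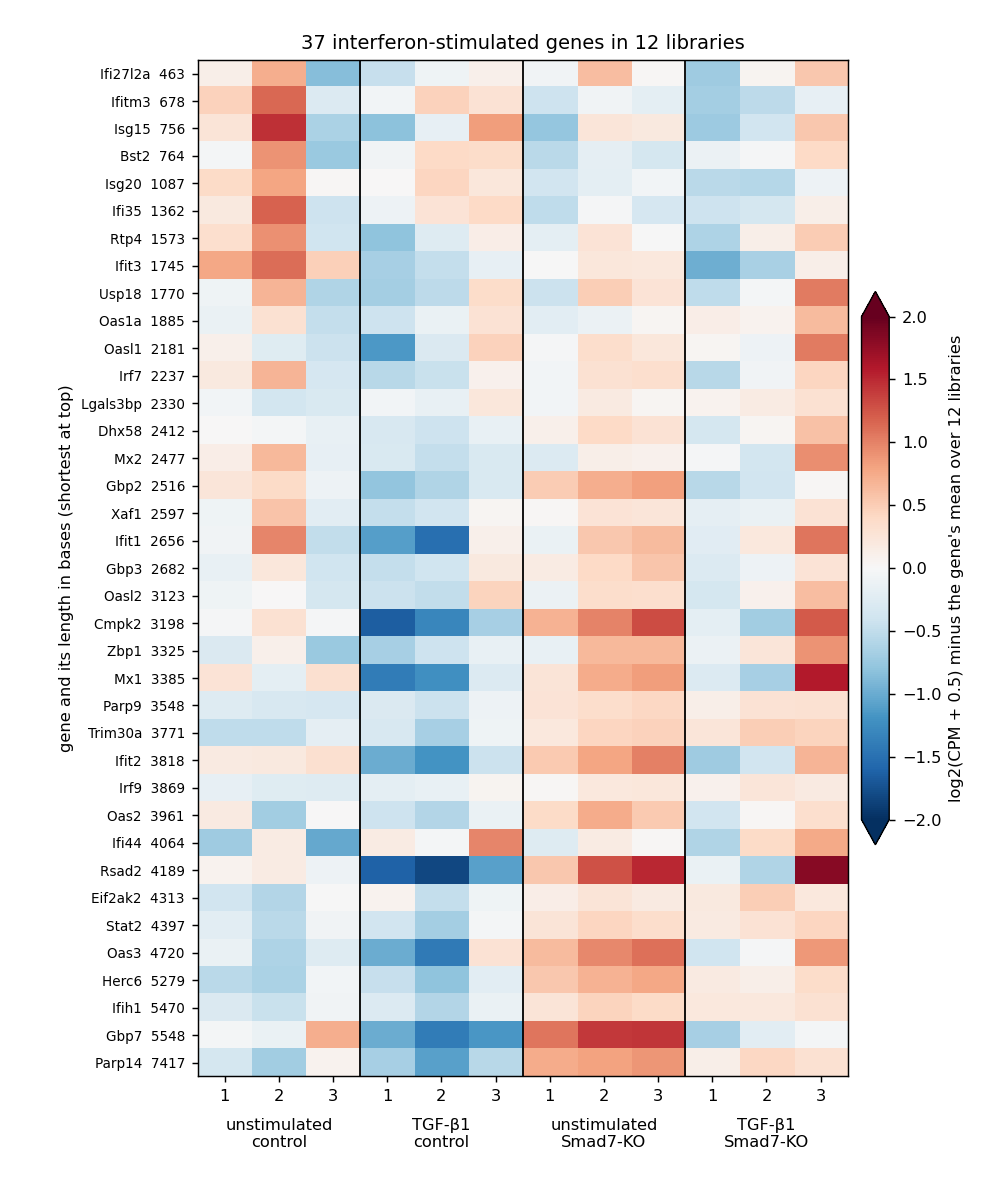
Level of the 37 interferon-stimulated genes (rows, ordered by gene length in bases) in the 12 libraries (columns, 3 per condition), as log2(CPM + 0.5) minus the mean of the gene over the 12 libraries. Library 1 of unstimulated Smad7-KO is the lowest of its condition in all 37 rows, and library 3 of TGF-β1 Smad7-KO is the highest of its condition in 33.

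On the log2 scale, the median SD between the 3 libraries of unstimulated control was 0.319 over the 37 genes and 0.327 over all tested genes. With TGF-β1 the control libraries gave 0.287 against 0.167. Smad7-KO libraries gave 0.192 against 0.0936 without and 0.354 against 0.132 with TGF-β1. In TGF-β1 Smad7-KO, 16 of the 37 genes differed more than 2-fold between the highest and the lowest library, against 10.2% of all tested genes. The widest range there was 5.71-fold, for Rsad2. In TGF-β1 control the widest was 9.31-fold, for the sparsely read Oasl1.

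TGF-β1 lowered 3 of the 37 genes in control cells and raised none. Gbp7 and Gbp2, guanylate-binding proteins that attack intracellular pathogens, and Ifit3 fell in edgeR's quasi-likelihood test. A gene is said to be called where its p, adjusted over all 15150 tested genes by the method of Benjamini and Hochberg, did not exceed 0.05. The 3 genes are 8.11% of the members, and of all tested genes 8.37% were called, 3.33% lower and 5.04% higher. The median log2 fold change of the 37 genes was -0.26, against -0.03 for all tested genes, and 28 of 37 were below 0. In 9 of the 37 genes (24.3%) every TGF-β1 library lay below every unstimulated library, against 9.0% of all tested genes. The reverse was true in 0 of the 37, against 10.9% of all tested genes. The number called was 1 when TGF-β1 control library 1 was left out, 2 when unstimulated control library 1 or TGF-β1 control library 2 was left out, and 6 when library 3 of TGF-β1 Smad7-KO was left out, which enters through the shared estimate of spread and the set of genes tested. The shares of all tested genes called in these refits are not given here, so the counts do not set the members apart from all genes. The summed macrophage markers, at 16570 to 19290 CPM with TGF-β1 and 16400 to 26530 CPM without, overlapped between both conditions. Of the 13, Cx3cr1 was higher and Cd14 lower in every TGF-β1 library.

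In Smad7-KO cells, TGF-β1 lowered Gbp7 and Gbp2 and raised none of the 37 genes. These are 5.41% of the members, and of all tested genes 10.2% were called, 4.9% lower and 5.33% higher. The median log2 fold change of the members was -0.11, against -0.01 for all tested genes, and 24 of 37 were at or below 0. Libraries did not overlap in 5 genes that were lower (13.5%) and in 2 that were higher (5.41%) with TGF-β1, against 19.9% and 19.0% of all tested genes. Without TGF-β1 Smad7-KO library 3, in which most of the members were highest, 6 of the 37 genes were called, all lower. Of all tested genes, 6.96% were then called in either direction. Of the 13 macrophage markers, 3 were higher in every TGF-β1 library (Cd68, Csf1r and Cx3cr1) and 2 were lower (Ptprc and Cd14), and their part in these responses was not tested.

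The response to TGF-β1 was not found to differ between the arms for any of the 37 genes. The interaction, which is the response in Smad7-KO cells minus that in control cells, was called by edgeR for 0 of 37 genes, and 0 had an unadjusted p under 0.05. By DESeq2 it was also called for 0. Only 0.0198% of all tested genes, 3 genes, were called. The lowest unadjusted p in edgeR's quasi-likelihood test was 0.0637, and the lowest adjusted p was 0.98. The intervals are wide: for Rsad2 the interaction was 1.24 on the log2 scale (95% interval by the t distribution -0.44 to 2.91), and for Ifit3 it was 0.67 (-0.13 to 1.46). Without TGF-β1 Smad7-KO library 3 that of Rsad2 was 0.07. For Stat2 it was 0.04 (-0.47 to 0.55). The responses in the 2 arms share no library.

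**Figure D2:**
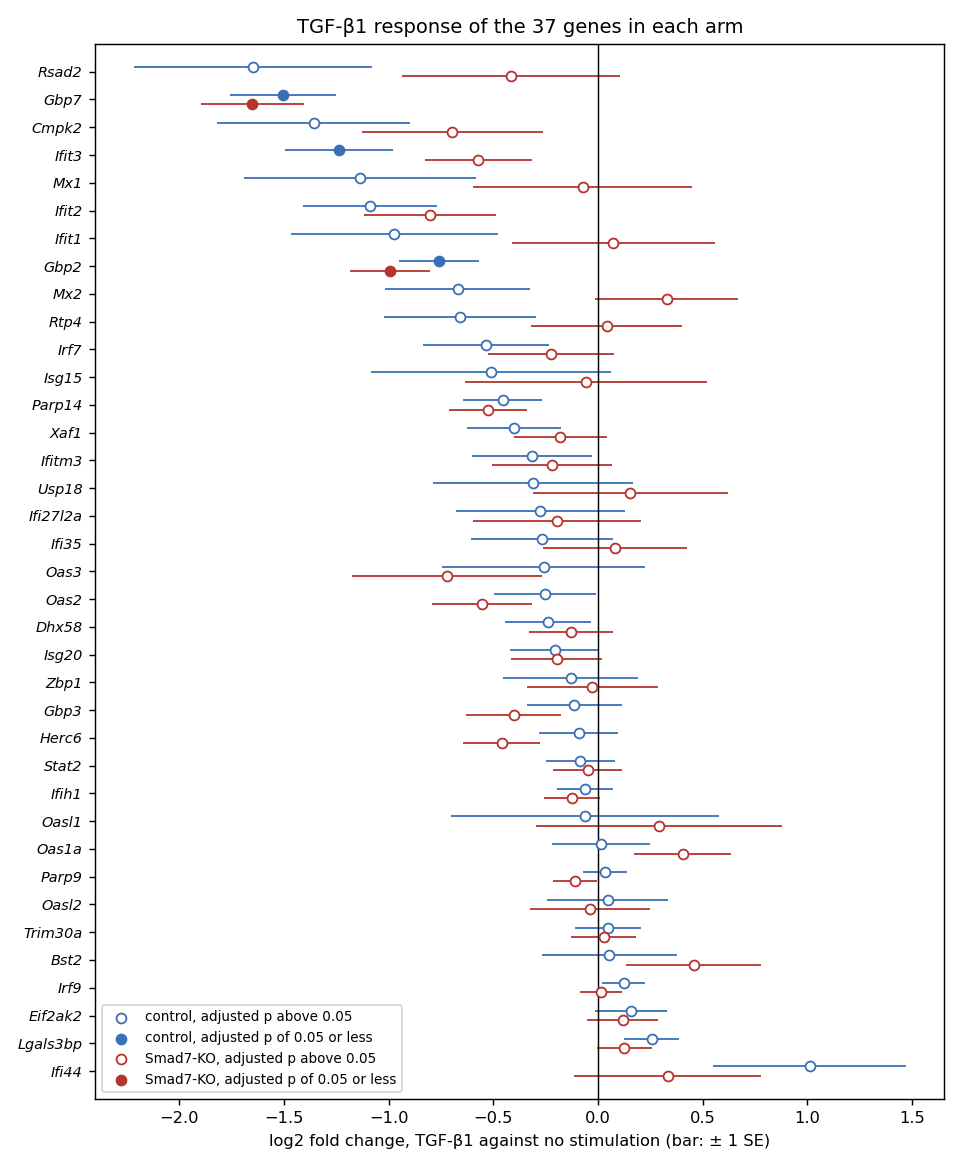
Log2 fold change of TGF-β1 against no stimulation for each of the 37 genes in control (blue) and Smad7-KO (red) cells, with bars of 1 standard error and filled symbols at an adjusted p of 0.05 or less. Filled symbols are Gbp7, Ifit3 and Gbp2 in control cells and Gbp7 and Gbp2 in Smad7-KO cells, all below 0.

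Smad7-KO cells had more RNA of several interferon-stimulated genes than control cells without stimulation. Parp14, Herc6, Gbp7, Trim30a, Parp9, Ifih1, Stat2, Eif2ak2 and Irf9 rose, with log2 fold changes between 0.38 and 1.11, whereas Isg20 fell. The 10 genes called are 27.0% of the members, near the 25.8% of all tested genes that were called. By direction, 24.3% of the members were called higher against 12.1% of all tested genes, and 2.7% lower against 13.7%. Every Smad7-KO library lay above every control library for 16 of 37 genes (43.2%, against 22.1% of all) and below for 2 (5.41%, against 19.2%). The median log2 fold change was 0.47, against -0.02 for all tested genes. The unstimulated control libraries stood apart from each other, and 16 genes were called without library 3 (11 higher and 5 lower, when 51.5% of all tested genes were called) and 9 without library 2 (19.4% of all). The call was made for 6 genes without unstimulated Smad7-KO library 2 or library 3 (9.90% of all in each case). Over all 12 single libraries left out, Parp14, Parp9, Herc6, Trim30a, Ifih1 and Gbp7 remained called. With only the libraries of this comparison in the fit, Parp14, Parp9, Herc6 and Trim30a stayed called. Ifih1, Gbp7, Stat2, Eif2ak2, Irf9 and Isg20 did not, when the share of all tested genes called was also lower. Ifih1 also missed the threshold with the length trend removed and a replicate block. The summed macrophage markers, of which Lyz2 takes the largest share, overlapped between both conditions, at 23430 to 25710 CPM in Smad7-KO and 16400 to 26530 CPM in control cells. Taken singly, 6 of the 13 markers (Ptprc, Cd68, Csf1r, Fcgr1, Mrc1 and Itgam) were higher in every Smad7-KO library than in every control library and 0 were lower. Their part in the differences of the 37 genes was not tested.

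With TGF-β1, 9 of the 37 genes were higher in Smad7-KO than in control cells and none was lower. Parp14, Parp9, Trim30a, Ifih1, Stat2, Herc6 and Gbp7 were called again, together with Rsad2 and Cmpk2, neighbouring genes whose products make and supply antiviral nucleotides. This is 24.3% of the members, against 5.72% of all tested genes called higher, 7.23% called lower and 13.0% called in either direction. The median log2 fold change was 0.45, against -0.02 for all tested genes. Every Smad7-KO library lay above every control library for 11 of 37 genes (29.7%, against 21.9% of all tested genes) and below for 2 (5.41%, against 23.0%). Both Smad7-KO comparisons use different libraries but share 1 estimate of spread. The number called moved with single libraries: it was 4 or 3 when TGF-β1 control library 1 or 2 was left out, and 15 (13 higher) without unstimulated control library 2, when 28.8% of all tested genes were called. When TGF-β1 Smad7-KO library 1, 2 or 3 was left out, it was 5, 6 or 4. Except for the refit with 15 calls, the shares of all tested genes called are not given here. These counts therefore do not show whether the members moved apart from all tested genes. Parp14, Parp9 and Trim30a remained called with each of the 12 libraries left out. The summed macrophage markers were higher in each Smad7-KO library (22820 to 25930 CPM) than in each control library (16570 to 19290 CPM). Taken singly, this was true of 9 of the 13 (the 6 named above, Lyz2, C1qb and Cx3cr1) and the reverse of 0, and their part in these differences was not tested.

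**Figure D3:**
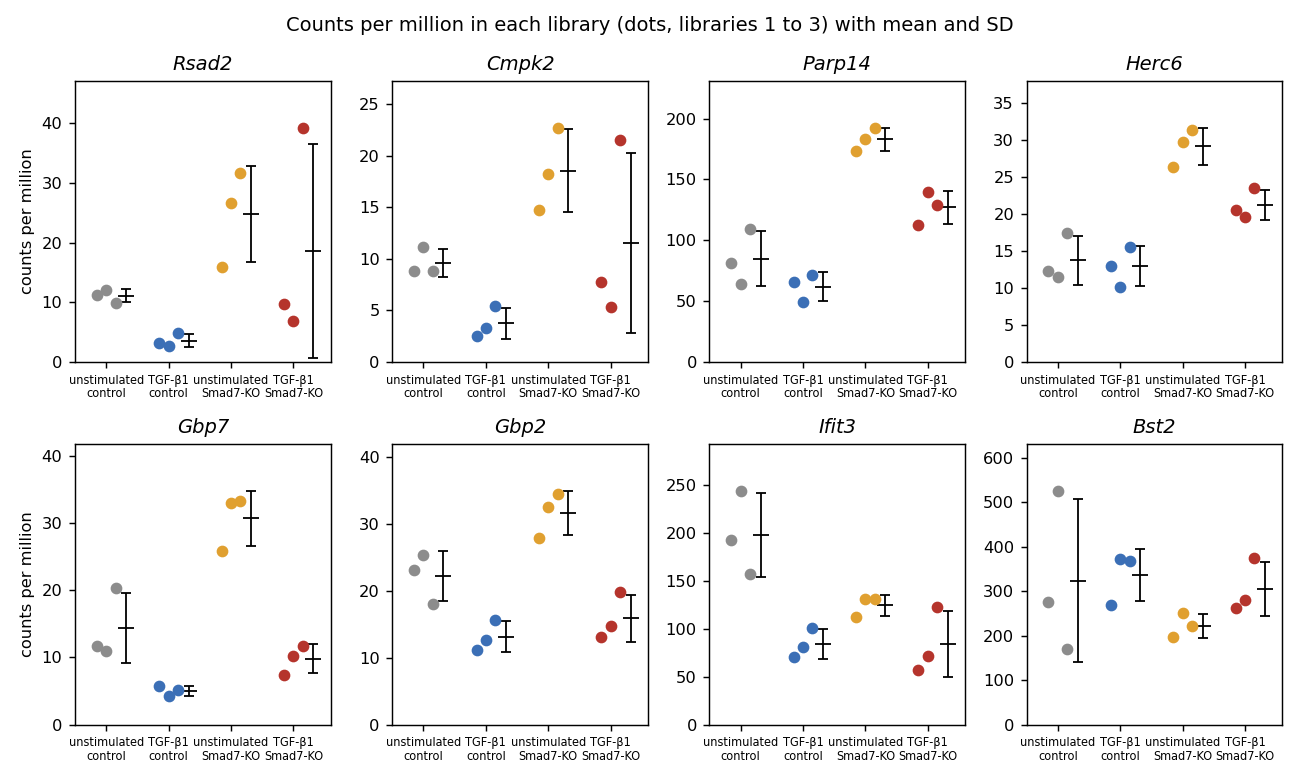
CPM in each library (dots, in the order 1 to 3) with mean and SD (black) for 8 of the 37 genes in the 4 conditions, each panel with its own scale from 0. Library 3 of TGF-β1 Smad7-KO is the highest of its condition for Rsad2 (39.2 CPM) and Cmpk2 (21.5 CPM). The 3 libraries of Parp14 in that condition lie between 113 and 139.5 CPM.

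Among the transcription factors of the pathway, the ISGF3 subunits Stat2 and Irf9 were higher in Smad7-KO cells, whereas Irf7, which amplifies interferon production, was not called in any comparison. Stat2 (chromosome 10, 128270576 to 128292849) was at 46.0, 36.6 and 51.0 CPM in the unstimulated control libraries and 41.1, 33.1 and 52.0 CPM with TGF-β1. In Smad7-KO cells it was at 64.6, 72.7 and 68.4 CPM without and 60.8, 65.7 and 72.3 CPM with TGF-β1. Every Smad7-KO library was above every control library, and TGF-β1 libraries overlapped unstimulated libraries in both arms. The log2 fold change of Smad7-KO against control was 0.62 (standard error 0.165, edgeR adjusted p = 0.0223) without stimulation and 0.66 (standard error 0.165, edgeR adjusted p = 0.0241) in TGF-β1-stimulated cells. With each library left out it stayed between 0.50 and 0.73 and between 0.52 and 0.84, but the call was lost without unstimulated control library 1 or any unstimulated Smad7-KO library, and, with TGF-β1, without control library 1 or 2 or any Smad7-KO library (edgeR adjusted p up to 0.0913). Irf9 (chromosome 14, 55603571 to 55610030), which overlaps Rnf31 on the same strand so that reads could be shared, was at 40.9, 38.7 and 38.2 CPM in unstimulated control and 46.7, 52.8 and 53.5 CPM in unstimulated Smad7-KO libraries. With TGF-β1 it was at 39.8, 41.0 and 47.4 CPM in control and 48.5, 54.2 and 51.9 CPM in Smad7-KO libraries. The groups did not overlap in either comparison, but the difference was small, at 0.38 (standard error 0.101, edgeR adjusted p = 0.023) on the log2 scale without TGF-β1. It was 0.27 with TGF-β1 (edgeR adjusted p = 0.103). The former was 0.24 (edgeR adjusted p = 0.103) once a trend with gene length was removed, and the call was also lost without unstimulated Smad7-KO library 2 or 3 (edgeR adjusted p up to 0.0872).

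Irf7 (chromosome 7, 141262706 to 141266481), which overlaps Phrf1 on the opposite strand, was at 17.8, 24.97 and 12.1 CPM in unstimulated control and 10.3, 11.1 and 16.4 CPM in TGF-β1 control libraries. In Smad7-KO cells it was at 14.7, 19.1 and 19.4 CPM without and 10.2, 14.6 and 20.9 CPM with TGF-β1. The groups overlapped throughout, and the log2 fold changes of Smad7-KO against control were -0.04 and 0.27 (edgeR adjusted p = 0.934 and 0.564). Usp18 (chromosome 6, 121245906 to 121270916), which removes Isg15 from proteins and blocks the interferon receptor as a brake on the pathway, was at 7.44, 13.0 and 5.06 CPM in unstimulated control and 4.77, 5.37 and 10.4 CPM in TGF-β1 control libraries. In Smad7-KO cells it was at 5.80, 11.4 and 9.67 CPM and, with TGF-β1, 5.46, 7.74 and 16.9 CPM. Its libraries overlapped in all 4 comparisons, with log2 fold changes between -0.31 and 0.55.

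Of the sensors of foreign nucleic acid, Ifih1, which encodes the double-stranded RNA receptor MDA5, was higher in Smad7-KO cells with and without TGF-β1. Ifih1 (chromosome 2, 62595798 to 62646255) was at 26.2, 23.4 and 30.6 CPM in unstimulated control and 26.4, 21.2 and 29.2 CPM in TGF-β1 control libraries. By comparison, Smad7-KO libraries were at 38.2, 43.8 and 41.8 CPM without and 37.2, 37.0 and 39.5 CPM with TGF-β1. No Smad7-KO library overlapped the controls. The log2 fold change was 0.63 (standard error 0.135, edgeR adjusted p = 0.00881) without stimulation and 0.57 (standard error 0.135, edgeR adjusted p = 0.0186) in TGF-β1-stimulated cells. The latter call was lost without TGF-β1 control library 2 or any TGF-β1 Smad7-KO library, at log2 fold changes not below 0.46 (edgeR adjusted p up to 0.0746). With the length trend removed the log2 fold changes of Ifih1 were 0.32 and 0.43 (edgeR adjusted p = 0.0496 and 0.0158). Eif2ak2 (chromosome 17, 78852564 to 78882573) encodes PKR, the kinase that stops translation on double-stranded RNA. It was at 46.4, 40.4 and 60.5 CPM in unstimulated control and 66.9, 73.0 and 69.2 CPM in unstimulated Smad7-KO libraries. With TGF-β1 it was at 63.8, 43.4 and 57.2 CPM in control and 70.1, 86.0 and 70.7 CPM in Smad7-KO libraries. Smad7-KO libraries were above control libraries in both comparisons, by 0.50 (standard error 0.17, edgeR adjusted p = 0.0494) and 0.46 (edgeR adjusted p = 0.0968) on the log2 scale. The unstimulated call lies at the threshold and was lost with 10 of the 12 libraries left out, at log2 fold changes from 0.39 (without unstimulated control library 2) to 0.54 (without unstimulated Smad7-KO library 1). It was kept when unstimulated control library 3 or TGF-β1 control library 2 was the one left out. Dhx58, the regulator LGP2 of the RNA sensors, and Zbp1, a sensor of Z-form nucleic acid, had log2 fold changes of 0.34 and 0.74 in unstimulated cells and 0.45 and 0.84 with TGF-β1, and neither was called.

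Several enzymes of protein modification differed between the arms. Parp14, a mono-ADP-ribosyltransferase, and Parp9, which acts as a partner of the ubiquitin ligase Dtx3l, lie on the same chromosome, and both were higher in Smad7-KO cells. Parp14 (chromosome 16, 35832874 to 35871544) was at 81.2, 64.1 and 109 CPM in unstimulated control and 65.8, 48.9 and 71.0 CPM in TGF-β1 control libraries. Its Smad7-KO libraries were at 174, 183 and 192 CPM without and 113, 139.5 and 129 CPM with TGF-β1. Each Smad7-KO library exceeded each control library of the same stimulation, by 1.11 (standard error 0.189, edgeR adjusted p = 0.00274) and 1.04 (standard error 0.189, edgeR adjusted p = 0.00491) on the log2 scale. Its libraries with TGF-β1 lay below those without in Smad7-KO cells and overlapped them in control cells. The response was not called in either arm, with log2 fold changes of -0.53 (edgeR adjusted p = 0.115) and -0.46 (edgeR adjusted p = 0.193). Parp9 (chromosome 16, 35938470 to 35972605) was at 29.4, 28.1 and 27.7 CPM in unstimulated control and 28.6, 25.9 and 32.8 CPM in TGF-β1 control libraries. The Smad7-KO libraries were at 42.8, 45.0 and 46.9 CPM without and 38.4, 42.9 and 43.7 CPM with TGF-β1, and no group overlapped its control. The log2 fold changes were 0.66 (standard error 0.106, edgeR adjusted p = 0.00198) and 0.52 (standard error 0.106, edgeR adjusted p = 0.0086). Parp9 overlaps Dtx3l on the opposite strand, and the setting for strand at counting is not given in the sources used here. Dtx3l, which is no member, rose by 1.26 and 1.01 on the log2 scale (edgeR adjusted p = 0.00362 and 0.0137).

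Herc6 (chromosome 6, 57580992 to 57665136), the ligase that attaches Isg15 to proteins in the mouse, was at 12.3, 11.4 and 17.5 CPM in unstimulated control and 13.0, 10.2 and 15.6 CPM in TGF-β1 control libraries. The Smad7-KO libraries reached 26.4, 29.7 and 31.3 CPM without and 20.5, 19.6 and 23.4 CPM with TGF-β1. Groups did not overlap between the arms, and the log2 fold change was 1.08 (standard error 0.187, edgeR adjusted p = 0.00293) without and 0.72 (standard error 0.187, edgeR adjusted p = 0.0272) with TGF-β1. The latter call was lost without TGF-β1 control library 1 or 2 or any TGF-β1 Smad7-KO library, with log2 fold changes of at least 0.58 (edgeR adjusted p up to 0.111). Isg15, the modifier itself, was not called, with log2 fold changes of -0.67 and -0.21 (standard errors 0.575 and 0.577), and in unstimulated control its libraries were at 12.7, 29.9 and 6.62 CPM. Trim30a (chromosome 7, 104409025 to 104465193), a TRIM protein that limits Toll-like receptor signals and belongs to a family of close paralogs among which reads could be split, was at 39.0, 38.9 and 49.3 CPM in unstimulated control and 44.4, 34.9 and 52.5 CPM in TGF-β1 control libraries. Smad7-KO libraries were at 64.7, 75.2 and 76.6 CPM without and 65.7, 78.6 and 76.4 CPM with TGF-β1, above all controls. The log2 fold changes were 0.77 (standard error 0.157, edgeR adjusted p = 0.00684) and 0.75 (standard error 0.157, edgeR adjusted p = 0.0101). TGF-β1 moved it by 0.05 and 0.03 on the log2 scale, within the spread between libraries.

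Guanylate-binding proteins were the members that TGF-β1 changed in both arms. Gbp7 (chromosome 3, 142530338 to 142550083) was at 11.7, 10.9 and 20.3 CPM in unstimulated control and 5.78, 4.27 and 5.10 CPM in TGF-β1 control libraries. In Smad7-KO cells it was at 25.9, 32.9 and 33.2 CPM without and 7.42, 10.3 and 11.7 CPM with TGF-β1. All 4 conditions were separate except that 1 TGF-β1 Smad7-KO library, at 11.7 CPM, reached the range of unstimulated control. With TGF-β1 the log2 fold change of Gbp7 was -1.50 (standard error 0.255, edgeR adjusted p = 0.00295) in control and -1.65 (standard error 0.248, edgeR adjusted p = 0.00103) in Smad7-KO cells. Smad7-KO against control gave 1.10 (standard error 0.243, edgeR adjusted p = 0.0101) without and 0.95 (standard error 0.255, edgeR adjusted p = 0.031) with TGF-β1. The last call was lost when any TGF-β1 control library, or Smad7-KO library 2 or 3 with TGF-β1, was left out (log2 fold change 0.82 to 1.12, edgeR adjusted p up to 0.124). Gbp2 (chromosome 3, 142620602 to 142638008) was at 23.1, 25.4 and 18.1 CPM in unstimulated control and 11.1, 12.6 and 15.7 CPM in TGF-β1 control libraries. Smad7-KO libraries were at 27.9, 32.5 and 34.5 CPM and, with TGF-β1, at 13.1, 14.8 and 19.8 CPM. TGF-β1 libraries lay below unstimulated libraries in both arms, with log2 fold changes of -0.76 (standard error 0.19, edgeR adjusted p = 0.0286) and -0.99 (standard error 0.189, edgeR adjusted p = 0.00527). In control cells the call was lost without unstimulated control library 1 or TGF-β1 control library 1 or 2, at log2 fold changes between -0.73 and -0.65 (edgeR adjusted p up to 0.128). Gbp3, of the same cluster on chromosome 3, was at -0.11 and -0.40 and was not called. Gbp3 and Gbp7 overlap Gbp5 on the same strand, and they belong to a family of close paralogs, so the division of reads among them is uncertain. The dynamin-like GTPases Mx1 and Mx2 were not called in any comparison, with log2 fold changes from -1.14 to 1.57 and standard errors from 0.341 to 0.553.

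Rsad2 encodes viperin, which makes a chain-terminating nucleotide, and Cmpk2 a mitochondrial nucleotide kinase. They lie side by side on chromosome 12, Rsad2 from 26442753 to 26456452 and Cmpk2 from 26469204 to 26479835. Rsad2 was at 11.2, 12.1 and 9.96 CPM in unstimulated control and 3.15, 2.68 and 4.81 CPM in TGF-β1 control libraries. Smad7-KO libraries were at 15.9, 26.6 and 31.7 CPM without and 9.77, 6.88 and 39.2 CPM with TGF-β1. The 4 conditions had means in the rising order TGF-β1 control, unstimulated control, TGF-β1 Smad7-KO, unstimulated Smad7-KO, but the SD of TGF-β1 Smad7-KO was 17.9 CPM about a mean of 18.6 CPM. Smad7-KO against control was 2.40 on the log2 scale with TGF-β1 (standard error 0.571, edgeR adjusted p = 0.0186), a 5.26-fold difference, and 1.25 without TGF-β1 Smad7-KO library 3. The call was lost without TGF-β1 control library 1 or 2, at 2.32 and 2.24 (edgeR adjusted p up to 0.0856). Without stimulation it was 1.16 (standard error 0.531, edgeR adjusted p = 0.115), and the response to TGF-β1 in control cells was -1.65 (standard error 0.569, edgeR adjusted p = 0.112), in both cases with no overlap between libraries. Cmpk2 was at 8.79, 11.1 and 8.77 CPM in unstimulated control and 2.51, 3.29 and 5.44 CPM in TGF-β1 control libraries. Its Smad7-KO libraries were at 14.7, 18.2 and 22.7 CPM without and 7.70, 5.29 and 21.5 CPM with TGF-β1. With TGF-β1 the lowest Smad7-KO library was below the highest control library, so that the groups overlapped although the gene was called, at 1.62 on the log2 scale (standard error 0.461, edgeR adjusted p = 0.0397). The call was lost with 8 of the 12 libraries left out: unstimulated control library 1, TGF-β1 control library 1 or 2, any unstimulated Smad7-KO library, and TGF-β1 Smad7-KO library 1 or 3. It was 0.82 without TGF-β1 Smad7-KO library 3 (over the 12, edgeR adjusted p up to 0.142). Both genes also missed the threshold in limma on log2(FPKM + 1), at 1.27 for Rsad2 and 0.92 for Cmpk2, and without the filter on low counts.

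Of the Ifit genes, neighbours on chromosome 19 whose products bind viral RNA, Ifit3 fell with TGF-β1 in control cells. Ifit3 (chromosome 19, 34583531 to 34588731) was at 193, 244 and 158 CPM in unstimulated control and 70.6, 80.7 and 101 CPM in TGF-β1 control libraries. In Smad7-KO cells it was at 112, 131 and 131 CPM without and 57.2, 71.9 and 123 CPM with TGF-β1. TGF-β1 libraries lay below unstimulated ones in control cells, with a log2 fold change of -1.24 (standard error 0.259, edgeR adjusted p = 0.0105), which was -1.12 and not called without TGF-β1 control library 1 (edgeR adjusted p = 0.0574). In Smad7-KO cells the libraries overlapped, at -0.57 (standard error 0.256, edgeR adjusted p = 0.235). Unlike most members, Ifit3 was lower in each unstimulated Smad7-KO library than in each control library, at -0.67 on the log2 scale (edgeR adjusted p = 0.0707). With the length trend removed this difference was -0.38 (edgeR adjusted p = 0.178). Ifit1 and Ifit2 had log2 fold changes of -0.97 and -1.09 with TGF-β1 in control cells and 0.07 and -0.80 in Smad7-KO cells, with no call. Reads of the Ifit genes could be split among close copies. Isg20 (chromosome 7, 78913424 to 78920362), an exonuclease that degrades RNA, was the only member lower in Smad7-KO cells by the test, from 12.6, 16.7 and 9.62 CPM in unstimulated control to 7.18, 8.20 and 9.07 CPM in unstimulated Smad7-KO libraries. With TGF-β1 its control libraries were at 9.50, 12.9 and 11.1 CPM and its Smad7-KO libraries at 6.38, 6.20 and 8.78 CPM. The groups did not overlap in either comparison, and the log2 fold changes were -0.66 (standard error 0.215, edgeR adjusted p = 0.044) and -0.65 (edgeR adjusted p = 0.0696). The unstimulated call held without unstimulated control library 3 and was lost without each of the other 11 libraries, and it was -0.20 (edgeR adjusted p = 0.209) with the length trend removed. The 5 members of the Oas family, which includes sensors of double-stranded RNA, were not called, with log2 fold changes of Smad7-KO against control from -0.02 (Oas1a) to 1.35 (Oas3) without TGF-β1. Oas3 and Oas2 had every unstimulated Smad7-KO library above every control library and adjusted p of 0.0532 and 0.0523 in edgeR's test.

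The 3 most abundant members per length were not called in any comparison. Bst2 ranged from 169 to 527 CPM within unstimulated control alone, and its log2 fold changes lay between -0.54 and 0.46 over the 4 comparisons. Ifitm3 was at 324 ± 154 CPM without and 260.2 ± 45.1 CPM with TGF-β1 in control libraries, and at 188 ± 22.3 and 162 ± 30.4 CPM in Smad7-KO libraries. With TGF-β1 each Smad7-KO library of Ifitm3 was below each control library, at -0.68 (edgeR adjusted p = 0.143). Lgals3bp was at 274 ± 32.1 CPM in unstimulated control and 337 ± 28.4 CPM in unstimulated Smad7-KO libraries. Of the 37 genes, 14 were called in at least 1 comparison and 23 in none. The 23 are Ifit1, Ifit2, Isg15, Mx1, Mx2, Oas1a, Oas2, Oas3, Oasl1, Oasl2, Irf7, Usp18, Dhx58, Ifi44, Ifi27l2a, Bst2, Xaf1, Gbp3, Rtp4, Zbp1, Ifitm3, Lgals3bp and Ifi35.

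The difference between Smad7-KO and control cells followed gene length, among the members and among all genes. Classes of length, with limits at 2000 and 3000 bases, were drawn after the values had been seen. All 18 members over 3000 bases had log2 fold changes above 0 in unstimulated cells, with a median of 0.68, and the 9 genes that rose are all among them. Of all tested genes over 3000 bases, 66.8% were above 0, with a median of 0.21. The 10 members under 2000 bases had a median of -0.60, and all tested genes of that length -0.45. With TGF-β1 the medians were 0.73 over 3000 bases (all tested genes 0.12) and -0.07 under 2000 bases (all tested genes -0.22). The 9 members of 2000 to 3000 bases had medians of 0.30 without and 0.28 with TGF-β1. All tested genes of that class were at -0.12 and -0.08. After removal of the trend of each library with gene length, the medians over 3000 bases were 0.57 without and 0.65 with TGF-β1, whereas those of all tested genes of that class were 0.00 and 0.02. The 7 genes called in both comparisons then had smaller log2 fold changes in unstimulated cells than as fitted. These were 0.82 for Gbp7, 0.81 for Herc6, 0.69 for Parp14, 0.66 for Trim30a, 0.57 for Parp9, 0.43 for Stat2 and 0.32 for Ifih1. In unstimulated cells 10 members were then called, all higher (all tested genes 29.5%), with Gbp2 and Lgals3bp in the place of Isg20 and Irf9. In TGF-β1-stimulated cells 14 were called, 12 higher and 2 lower, Ifitm3 and Isg20 (all tested genes 23.5%). For the response to TGF-β1 the calls were then 5, all lower, in control cells, adding Parp14 and Ifit2. In Smad7-KO cells they were 4, with Gbp2, Gbp7 and Parp14 lower and Bst2 higher. These counts stand against 15.0% and 17.1% of all tested genes. As fitted, the response of control cells to TGF-β1 also differed with length over all tested genes. Its median was -0.23 under 2000 and 0.06 over 3000 bases (members -0.29 and -0.11). For the interaction the medians of all tested genes were 0.21 and -0.10 (members 0.40 and -0.07).

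**Figure D4:**
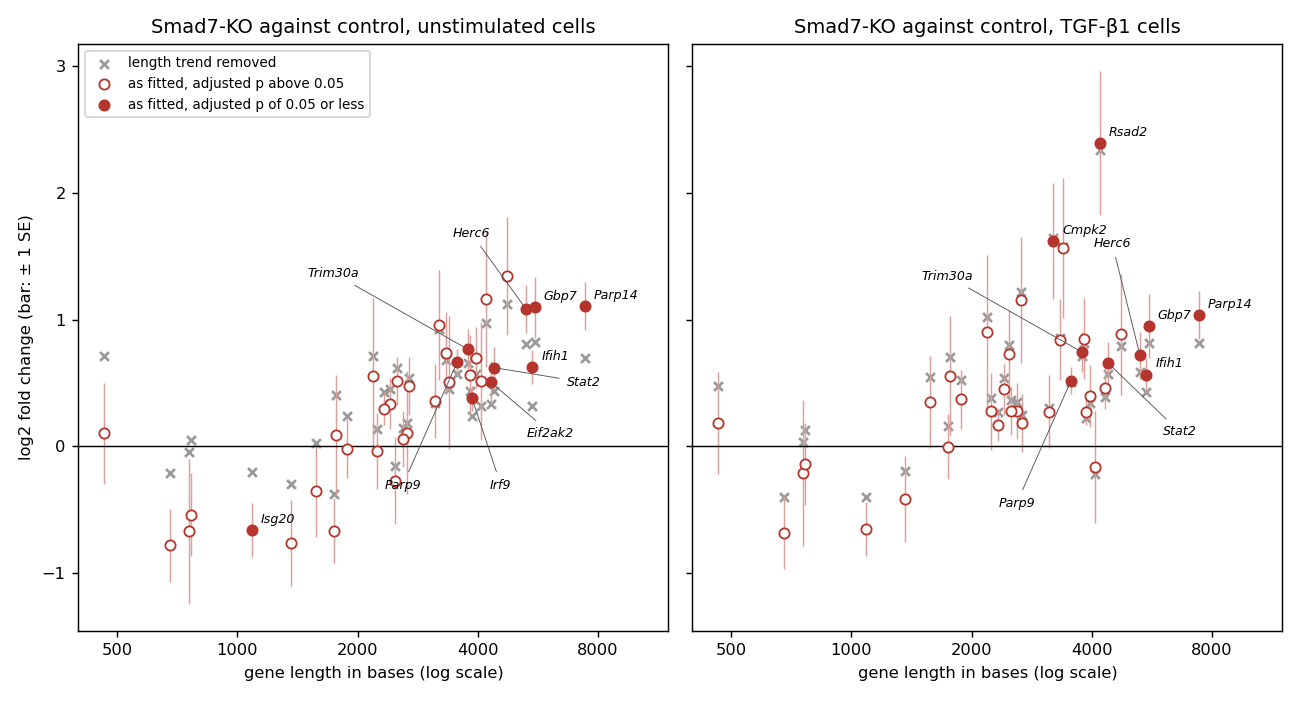
Log2 fold change of Smad7-KO against control (circles, with bars of 1 standard error, filled at an adjusted p of 0.05 or less) against gene length on a log scale for the 37 genes, without (left) and with (right) TGF-β1. Grey crosses give the same genes after removal of the length trend: in unstimulated cells the median of the 10 genes under 2000 bases moves from -0.60 to -0.01, and that of the 18 genes over 3000 bases from 0.68 to 0.57.

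Interferon genes themselves were barely read. Of 21 ligand genes 0 passed the filter, and 7 (Ifna1, Ifna4, Ifna5, Ifna7, Ifna16, Ifng and Ifnl3) had no read in any library, which allows up to 3 counts each, for counting error only. Ifnz had 40 reads and Ifnb1 14 reads over the 12 libraries, Ifnab had 8, and each of the 11 others had 1 to 5. The sum of the 21 genes did not exceed 0.61 CPM in any library. RNA in the cells at a single time after stimulation was measured, not secreted protein. The receptor genes Ifnar1 and Ifnar2 were at 153 and 76.8 CPM in unstimulated control, and were called in no comparison. Ifngr1, a chain of the type II receptor, fell with TGF-β1 from 221 ± 8.85 to 142 ± 5.14 CPM in control and from 212 ± 9.24 to 129 ± 3.53 CPM in Smad7-KO cells. These are log2 fold changes of -0.64 and -0.71 (standard errors 0.0828 and 0.0829, edgeR adjusted p = 0.000419 and 0.000161). Ifngr2 and Il10rb were at 154 and 86.8 CPM in unstimulated control and were not called. Ifnlr1, of the type III receptor, was sparse and, with TGF-β1, lower in Smad7-KO than in control cells, at 0.91 ± 0.191 against 2.17 ± 0.622 CPM (log2 fold change -1.25, edgeR adjusted p = 0.0359).

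Among 9 kinases and transcription factors outside the list, 4 were higher in unstimulated Smad7-KO cells and 0 lower, by edgeR's test, against 12.1% and 13.7% of all tested genes. These were Tyk2 (0.84 on the log2 scale, 51.7 to 92.8 CPM), Irf2 (0.56, 38.2 to 56.3 CPM), Irf8 (0.45, 111 to 151 CPM) and Jak1 (0.45, 288 to 393 CPM). With TGF-β1, Irf2 (0.40) and Irf8 (0.49) were higher, against 5.72% of all tested genes. Irf8, a factor of the macrophage lineage, also rose with TGF-β1 in control (0.60) and Smad7-KO cells (0.64), whereas Irf1 fell in Smad7-KO cells (-0.62, edgeR adjusted p = 0.0463) and was at -0.61 in control cells (edgeR adjusted p = 0.0571). Jak2, Irf3 and Irf5, at 49.9, 47.8 and 83.9 CPM in unstimulated control, were called in no comparison.

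Of 14 sensors and adaptors outside the list, 8 were higher in unstimulated Smad7-KO cells (12.1% of all tested genes) and 0 lower (13.7% of all). These were Tlr9 (1.86 on the log2 scale), Tlr7 (1.19), the DNA sensor gene Mb21d1 (0.93), Ikbke (0.89), Tlr3 (0.53), Aim2 (0.47), Ddx58 (0.46) and Tbk1 (0.41). With TGF-β1, 5 of them (Tlr7, Mb21d1, Ikbke, Aim2 and Tbk1) were higher, at 0.34 to 1.05, against 5.72% of all tested genes. TGF-β1 lowered Ikbke, a kinase of the interferon response, in control (-0.95) and Smad7-KO cells (-1.14), and it raised Aim2 (0.55 and 0.53). Ddx58 fell (-0.44) and Tmem173 rose (0.45) in Smad7-KO cells. Several of these, such as Tlr7 and Tlr9, are genes that macrophages express, and the part of cell types was not tested.

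In 9 tested inhibitors and restriction factors, 5 were higher in unstimulated Smad7-KO cells and 0 lower (12.1% and 13.7% of all tested genes), among them Trim21 (0.65 on the log2 scale), Adar (0.59), Pias1 (0.58) and Samhd1 (0.44). With TGF-β1, 2 were higher, among them Trim21 (0.61), and 0 lower (5.72% and 7.23% of all). TGF-β1 lowered 4 of the 9 in control cells and 2 in Smad7-KO cells, against 3.33% and 4.9% of all tested genes. Samhd1, which depletes nucleotides, fell in both arms (-0.47 and -0.70). Ptpn6 (-0.45) and Socs3 (-0.44) were called lower in control cells and not in Smad7-KO cells, but the difference between the arms was not called for any of these genes.

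Of 85 further interferon-stimulated genes outside the list, 78 were found and 74 tested. In unstimulated cells 22 were higher in Smad7-KO than in control and 4 lower, against 12.1% and 13.7% of all tested genes. With TGF-β1, 15 were higher and 2 lower, against 5.72% and 7.23% of all. Their median log2 fold changes were 0.30 and 0.35. Trim5 (1.13 and 1.30), Slfn8 (1.07 and 1.22), Dtx3l, Trim34a (1.33 and 1.00) and Gbp5 (1.00 and 1.14) were higher in both comparisons, whereas Ly6a (-1.10 and -0.85) and Ifitm1 (-0.92 and -1.24) were lower in both. Cxcl10, a chemokine, was higher with TGF-β1 (1.68, edgeR adjusted p = 0.0294). The response to TGF-β1 was downward for 10 of the 74 genes in control cells, downward for 9 in Smad7-KO cells, and upward for 1, Irgm1, in each. Of all tested genes, 3.33% and 4.9% were called lower and 5.04% and 5.33% higher. Gbp8 (-1.69 and -1.58), Gbp5 (-1.54 and -1.41) and Gbp9 (-1.46 and -1.57), relatives of Gbp2 and Gbp7, were among those that fell in both arms.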

How the data were processed

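RNA of 12 libraries was selected for poly-A and sequenced as paired ends on a HiSeq 2000. Per the labels and the submitters' processing notes, the authors aligned reads to the mouse genome (mm10, GRCm38.p6) with TopHat2 version 2.0, and counted reads per gene with HTSeq 0.6.1. CASAVA and Cufflinks 2.1.1 are also named there. The deposited counts are whole numbers for 35275 genes, with 19056916 to 25371321 per library (median 22660845). The deposited FPKM values equal count over gene length and library total, and each gene was matched by symbol.

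From the counts, edgeR 4.0.16 (R 4.3.3) fitted 1 quasi-likelihood model with robust dispersion to the 4 conditions, after TMM scaling and filterByExpr with a minimum count of 10, which left 15150 genes. P-values were adjusted by Benjamini-Hochberg over these genes, with a threshold of 0.05. Intervals used the t distribution with the degrees of freedom of that test. The steps were tested on simulated data. Alternatives were DESeq2 1.42.0, its size factors in edgeR, the libraries of each comparison alone, no filter, limma 3.58.1 on log2(FPKM + 1) where 3 or more libraries reached an FPKM of 1, a replicate block, removal of each library's loess trend with gene length (span 0.3), and leaving out each library. Plotted logarithms of CPM had 0.5 added.

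Members and gene lists were chosen with earlier results of these data known. Library values, fold changes, standard errors and adjusted p-values were written out for members called in at least 1 test and for Irf7, Irf9, Stat2 and Usp18. Other members are given by ranges and counts. Listed pathway genes were counted by direction, and ligands, receptors and kinases are given with their levels. Some genes of these lists are not reported here by name. Dtx3l, Lgals3bp, Ifitm3, Bst2, Isg15 and the members with intervals or named by family were singled out after their values were seen. Promoters came from RefSeq (GRCm38.p6), where 10 members had no entry. Figures were drawn with matplotlib 3.10.9 in Python 3.11.15 (pandas 2.3.3).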

Additional observations from a re-analysis of the deposited data

How the results depend on the processing

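In the alternatives no call turned its direction, but the number of the 37 genes called moved, and the share of all tested genes called in either direction is given in parentheses. TGF-β1 in control cells gave 3 calls (8.37%), which became 6 in DESeq2 (11.0%), 5 with the length trend removed (15.0%), 5 with the replicate block (7.31%), and 7 with both the length trend removed and the replicate block (13.5%). In Smad7-KO cells the 2 calls (10.2%) became 7, of which 5 lower, with only the libraries of the comparison (26.3%), 4 with the length trend removed (17.1%), and 7 with the replicate block added to that (15.7%). Smad7-KO against control gave 10 calls without stimulation (25.8%), and 5 with only the libraries of that comparison (4.54%). With TGF-β1 the 9 calls (13.0%) became 15, of which 14 higher, in DESeq2 (18.2%), 14 with the length trend removed (23.5%), and 14 with the replicate block added to that (21.7%). The interaction gave 0 calls under each alternative that was run. Leaving out 1 library at a time gave 1 to 6 and 2 to 6 calls for TGF-β1 in control and Smad7-KO cells. For Smad7-KO against control it gave 6 to 16 calls without and 3 to 15 with TGF-β1, and 0 for the interaction. The share of all tested genes called also moved between such refits, and is given above for only some of them.

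The libraries that share a number did not deviate together: the correlation of same-numbered libraries ranged from -0.36 to 0.52, and unstimulated control library 3 correlated best with TGF-β1 control library 1 (0.55). The replicate block is therefore given only as an alternative. It gave 5, 3, 9, 10 and 0 calls for TGF-β1 in control and in Smad7-KO cells, Smad7-KO without and with TGF-β1, and the interaction. Apart from that for TGF-β1 in control cells, given above, the shares of all tested genes called with this block are not reported here.

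Over the 24 calls of single members, 169 refits with another setting stayed past the threshold and 23 did not. With 1 library left out, 228 stayed and 60 did not. The cause was not tested. Size factors of DESeq2 moved the median log2 fold change of all tested genes by at most 0.03. Counting depth limits the sparse members, of which Oasl1 had as few as 4 reads in a library.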
